A study of Homo sapiens with 4 samples.

Results

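RAB GTPases were examined as a transcript family in an RNA immunoprecipitation sequencing (RIP-seq) experiment on QKI7, 1 of the protein isoforms made from the RNA-binding QKI gene. The members are the rows of the expression table whose symbol is RAB followed by a number and at most 1 letter, 62 of the 26830 gene rows, and all 62 are protein-coding genes in RefSeq. Genes of RAB effectors, RAB-like proteins, antisense RNAs and read-through transcripts are not members. The cells were U2OS, a human bone osteosarcoma line, infected with a lentivirus for 3 x Flag-QKI7 and kept if GFP-positive, so both groups carried the transgene under forced expression. RNA recovered with an anti-Flag antibody after ultraviolet cross-linking and sonication (Flag-RIP, 2 libraries) was compared with input RNA of such cells (input, 2 libraries). Cells without the tagged protein and a mock precipitation were not analysed here. The labels number the replicates 1 and 2 without naming the cultures behind them, so the p-values rest on a spread between libraries that may be technical.

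RAB proteins are small GTPases of the Ras superfamily that mark the membranes of the secretory and endocytic pathways. A guanine nucleotide exchange factor (GEF) loads a RAB with GTP on its membrane, effectors such as tethers and motor adaptors bind the loaded form, and a GTPase-activating protein (GAP) ends the signal. Prenyl groups added with the help of an escort protein anchor RABs in membranes, and GDP dissociation inhibitors (GDI) extract and recycle them. QKI is a STAR-domain protein that binds RNA at ACUAA-type elements and acts in splicing, stability and translation of its targets.

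Values were TPM, the share of a library that each transcript takes after correction for its length, which keeps no read depth. The libraries had between 6117 and 12098 genes at 1 TPM or more, and RAB rows at that level numbered 17 and 24 in input against 44 and 43 in Flag-RIP. Synthetic spike-in RNAs took 2.78% and 3.89% of the inputs and 18.9% and 25.6% of the Flag-RIP libraries. Tested genes had a median of 1.29 and 2.01 TPM in the inputs against 5.72 and 5.37 TPM in Flag-RIP. Libraries were therefore scaled to a common median before the log, and a log2 change below is the difference of mean log2(scaled TPM + 1), Flag-RIP minus input. It says how a transcript moved relative to the typical tested transcript, and it understates the change of low genes. Of the mesenchymal marker genes fixed for the cell type, 7 of 8 passed the filter, led by VIM at 140 and 182 TPM in the inputs, against 1 of 5 epithelial (CLDN4) and 0 of 5 blood markers. The QKI row went from 3.83 and 5.85 TPM to 60.7 and 42.0 TPM (log2 change 1.53, limma adjusted p = 0.0087; 0.63 and not passing when scaled to the spike-ins), and reads of the transgene cannot be told apart from those of the endogenous gene.

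RAB transcripts went both ways relative to the typical transcript. Of 62 members, 35 averaged at least 1 TPM across all libraries and were tested. RAB31, RAB14, RAB5C, RAB9A, RAB23, RAB39A, RAB6A, RAB3B and RAB5A rose, which is 9 of 35 (25.7%) where 20.2% of all 10415 tested genes were called higher. RAB34, RAB32, RAB1B, RAB11B and RAB24 fell, which is 5 of 35 (14.3%) where 25.5% of all tested genes were called lower. With 1 library left out in turn, a group held only 1 library, and fewer of all tested genes passed in each direction. Of the calls listed, not all of the higher and none of the lower held each time. These losses were not compared with those among all tested genes. The other 21 did not pass (limma, adjusted p threshold of 0.05 over all tested genes). The median change was 0.12 over the tested members and -0.016 over all tested genes. For each of the 14 called members the Flag-RIP values lay on the same side of both inputs on the scaled values. The calls were made on these same values, which makes that order likely, so it is no separate support. Of all tested genes, called or not, 38.2% had both Flag-RIP values above both inputs and 41.5% had both below. The differences between the RAB shares and those of all tested genes were not tested, and nothing particular to the family is read from them.

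The split between higher and lower differed between scales. On the deposited TPM, with no scaling, all 35 tested members were higher and 0 lower, where 92.3% of all tested genes were called higher and 0.317% lower. With the 20 most abundant rows left out and the rest rescaled, 16 members were higher and 1 lower, where 36.0% of all tested genes were called higher and 7.02% lower. With libraries scaled to the spike-ins, 4 were higher and 17 lower, where 3.12% of all tested genes were called higher and 60.9% lower. In these alternatives limma also took the variance of each gene from the mean-variance trend alone, unlike in the main fit. The SE of RAB5C was 0.33 on the deposited TPM and 0.14 in the main fit. The counts thus do not reflect the scale alone. Ratios between members within a library do not depend on the choice of scale.

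The filter also bears on the counts. Of the 9 members that rose, 7 had a TPM under 1 in at least 1 input, and RAB31 and RAB5C did not. Of those 7, RAB5A had a mean input of 1.1 TPM. The rest had a mean input under 1 TPM and passed the filter through their Flag-RIP values. Among the 17 tested members at 1 TPM or more in both inputs, 2 rose and 5 fell, against 11.1% and 40.9% of the 6100 tested genes at that input level. Among the 18 with a lower input, 7 rose and 0 fell, against 33.0% and 3.78% of 4315 genes.

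**Figure D1:**
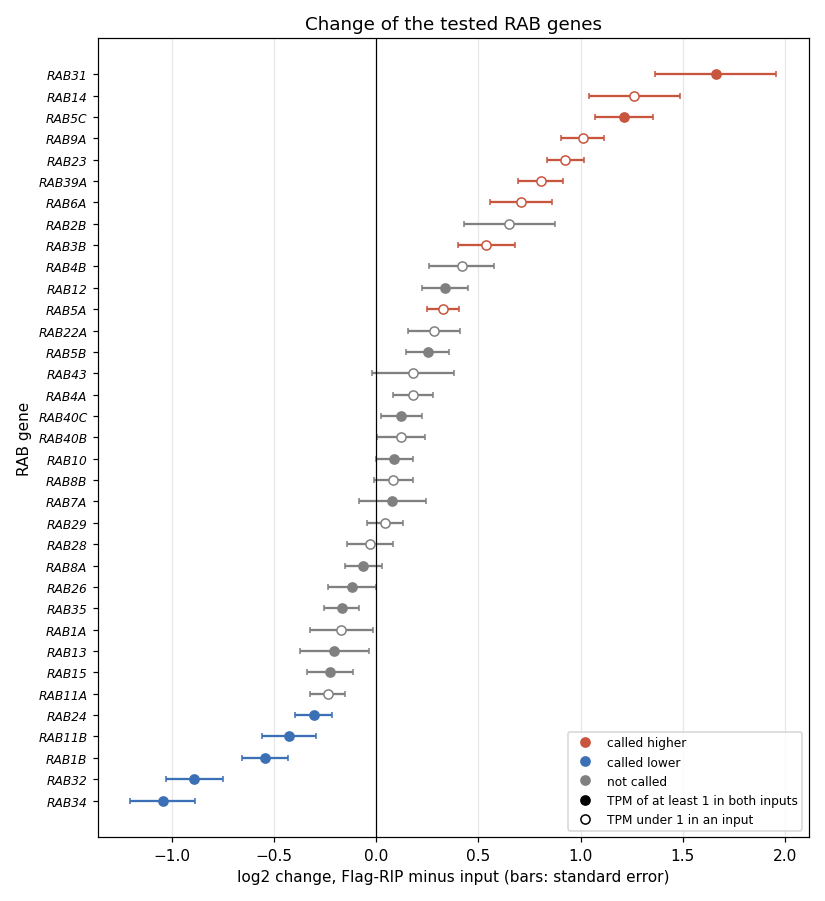
Log2 change (Flag-RIP minus input, horizontal axis) of each of the 35 tested RAB genes, with bars for the standard error of the limma fit; red points rose, blue fell, grey did not pass, and open points had a TPM under 1 in an input. RAB31 stands highest at 1.66 and RAB34 lowest at -1.04, and all 5 genes that fell had at least 1 TPM in both inputs.

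By log2 change, early endosome RABs held the 3 largest increases among the tested members, in RAB31, RAB14 and RAB5C. The order differed by the plain ratio of mean TPM, Flag-RIP to input. By that ratio RAB39A (13.6) and RAB23 (12.7) stood above RAB31 (12.6) and RAB14 (12.4). RAB9A (12.0) and RAB2B (9.78) stood above RAB5C (8.16). The early endosome group takes in RABs of early endosome fusion and RABs of traffic between the Golgi and endosomes. Of 9 members in this group 6 were tested, of which 4 rose and 0 fell, against the 20.2% and 25.5% of all tested genes given above. The median change was 0.77 over those 6. Of the 4 that rose, RAB14 and RAB5A had an input under 1 TPM, where 33.0% of all tested genes were called higher, and RAB31 and RAB5C did not, where 11.1% were.

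RAB5C encodes 1 of the RAB5 isoforms, which drive early endosome fusion. Input replicates held 7.15 and 10.4 TPM, and Flag-RIP replicates 78.4 and 64.4 TPM. Both Flag-RIP values were several times the higher input, while the replicates of each group lay close together. The plain ratio of mean TPM was 8.16, where the median of that ratio among tested genes was 3.32, and the log2 change was 1.21 (SE 0.14, limma adjusted p = 0.0089). RAB5C still passed with each library left out in turn, with changes from 1.11 to 1.30.

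RAB31, also known as RAB22B, acts in traffic between the trans-Golgi network and endosomes. It had 2.19 and 3.68 TPM in the inputs against 49.9 and 24.3 in Flag-RIP. The Flag-RIP libraries both lay far above the inputs but differed from each other, replicate 1 being the higher. Its log2 change was the largest of the tested members, 1.66 (SE 0.30, limma adjusted p = 0.012), and the plain ratio was 12.6. Leaving out Flag-RIP replicate 1 gave 1.18, leaving out replicate 2 gave 2.07, and RAB31 passed both times.

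RAB14, which acts between the Golgi and early endosomes, had 0.52 and 0.84 TPM in the inputs against 11 and 5.80 in Flag-RIP. As for RAB31, replicate 1 of Flag-RIP was the higher. The log2 change was 1.26 (SE 0.22, limma adjusted p = 0.012), with 0.86 to 1.51 when a library was left out, each passing. RAB14 overlaps GSN in the annotation. GSN had 8.36 and 10.3 TPM in the inputs against 18 and 15.4 in Flag-RIP, a change of -0.87 that was called lower, opposite in direction to RAB14.

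The remaining RAB5 isoforms moved less. RAB5A had 0.86 and 1.33 TPM in the inputs against 5.16 and 5.02 in Flag-RIP, a log2 change of 0.33 (SE 0.079, limma adjusted p = 0.024). That call was lost when any 1 library was left out, at changes of 0.29 to 0.36. RAB5B, at 1.49 and 2.48 against 9.19 and 7.36 TPM, had a change of 0.25 and did not pass (limma adjusted p = 0.10). RAB22A, the paralogue of RAB31, had 0.22 and 0.43 against 2.08 and 1.36 TPM, a change of 0.28 that did not pass (limma adjusted p = 0.12).

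RABs of the endoplasmic reticulum (ER) and Golgi had 2 of 7 tested members higher and 2 lower (28.6% each), from 18 in the group. Of all tested genes 20.2% were called higher and 25.5% lower, and the difference was not tested. RAB34, a Golgi-associated RAB with roles in organelle positioning and cilium formation, was the most abundant RAB in both inputs at 20.4 and 26.6 TPM, and had 37.0 and 38.7 in Flag-RIP. Its plain ratio of 1.61 was below the median ratio, and both Flag-RIP values lay below both inputs once the libraries were scaled. It fell by 1.04 on the log2 scale (SE 0.16, limma adjusted p = 0.0094). RAB1B, which drives transport from the ER to the Golgi, had 8.30 and 12.8 TPM in the inputs against 24.1 and 23.4 in Flag-RIP, and fell by 0.54 (SE 0.11, limma adjusted p = 0.017). Neither call held without Flag-RIP replicate 1 (-0.96 for RAB34 and -0.51 for RAB1B). RAB1B also missed the threshold without input replicate 1 (-0.54) or input replicate 2 (-0.56).

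RAB6A, which works in retrograde traffic at the Golgi, rose. It had 0.72 and 1.14 TPM in the inputs against 7.77 and 5.01 in Flag-RIP, a log2 change of 0.71 (SE 0.15, limma adjusted p = 0.018), lost without input replicate 1 (0.75) or Flag-RIP replicate 1 (0.46). RAB6C is a retrocopy of RAB6A, so the division of reads between them is uncertain; its values were 0.06 and 0.20 against 1.24 and 0.97 TPM. RAB39A had 0.09 and 0.25 TPM in the inputs against 2.36 and 2.28 in Flag-RIP, a log2 change of 0.81 (SE 0.11, limma adjusted p = 0.0091). It passed when any 1 library was left out (0.70 to 0.97), and its inputs were close to 0. RAB1A did not pass, at 0.98 and 1.81 against 3.23 and 4.57 TPM and a change of -0.17.

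**Figure D2:**
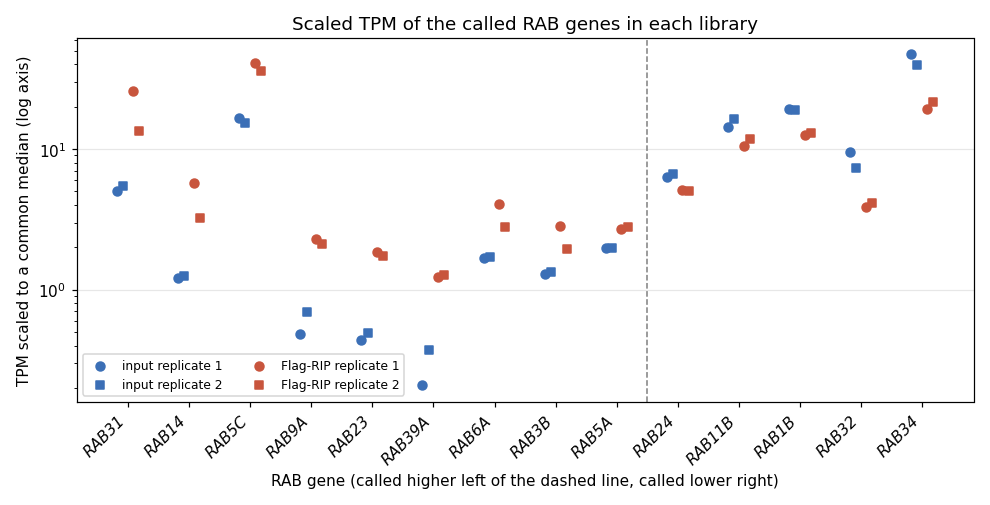
TPM scaled to a common library median (log axis) of the 14 called RAB genes in each library, inputs in blue and Flag-RIP in red, circles for replicate 1 and squares for replicate 2. Red points lie above both blue points for the 9 genes left of the dashed line and below both for the 5 on its right. Choosing genes by their call makes that order likely. The Flag-RIP replicates lie farthest apart for RAB31 and RAB14.

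Late endosome and lysosome RABs had 1 of 6 tested members higher (16.7%) and 2 lower (33.3%). The shares of all tested genes were 20.2% and 25.5%, and the difference was not tested. RAB9A, which returns mannose 6-phosphate receptors from late endosomes to the trans-Golgi network, had 0.21 and 0.47 TPM in the inputs against 4.36 and 3.82 in Flag-RIP. The Flag-RIP replicates lay close together, far above low inputs. The log2 change was 1.01 (SE 0.11, limma adjusted p = 0.0084), and it passed when any 1 library was left out (0.88 to 1.17), and had 0.51 when scaled to the spike-ins. RAB32, which acts at lysosome-related organelles and mitochondria, had 4.09 and 4.90 TPM against 7.45 and 7.48, and fell by 0.89 (SE 0.14, limma adjusted p = 0.0099); without Flag-RIP replicate 1 it had -0.82 and did not pass. RAB24, linked to autophagy, fell by 0.31, from 2.74 and 4.45 against 9.77 and 8.98 TPM (limma adjusted p = 0.043), a call lost when any 1 library was left out (-0.34 to -0.28). RAB7A, the main RAB of late endosomes, had 3.54 and 4.20 against 16.1 and 12.4 TPM, and its change of 0.079 did not pass (limma adjusted p = 0.71).

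Recycling and polarised delivery RABs lay near the typical transcript. These proteins return receptors to the cell surface or deliver exocytic vesicles. Of 11 members 10 were tested, with changes from -0.43 to 0.42. Of the 10, 0 rose and 1 fell, where 20.2% and 25.5% of all tested genes did, a difference that was not tested. RAB11B, of the recycling endosome, had 6.17 and 11.1 TPM in the inputs against 20.0 and 21.4 in Flag-RIP and fell by 0.43 (SE 0.13, limma adjusted p = 0.049). That call was lost when any 1 library was left out (-0.53 to -0.34). RAB11A, its paralogue, had 0.88 and 1.27 against 3.04 and 2.59 TPM and a change of -0.24 that did not pass. RAB13, a RAB of cell junctions and the most abundant of the group, had 9.14 and 11.4 against 34.5 and 26.6 TPM, a change of -0.20 with overlapping scaled values. The exocytic RABs RAB8A and RAB8B had changes of -0.063 and 0.084, and the fast-recycling RABs RAB4A and RAB4B had 0.18 and 0.42. None of these passed. RAB4B shares its locus with 2 read-through rows, so its value depends on how reads were divided.

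Among the smaller groups, RAB23, a cilium-associated regulator of Hedgehog signalling, had 0.19 and 0.33 TPM in the inputs against 3.52 and 3.10 in Flag-RIP. Its log2 change was 0.92 (SE 0.090, limma adjusted p = 0.0084), and it passed when any 1 library was left out (0.80 to 1.03). RAB23 overlaps BAG2 and PRIM2 in the annotation, whose changes of -0.31 (called lower) and -0.051 (not called) were unlike its own. RAB3B, of regulated exocytosis, had 0.56 and 0.90 against 5.41 and 3.52 TPM and a change of 0.54 (SE 0.14, limma adjusted p = 0.029). It missed the threshold when either input was left out (0.57 without replicate 1, 0.58 without replicate 2) and without Flag-RIP replicate 1 (0.32). RAB26, another secretory RAB, had 1.47 and 2.25 against 5.11 and 6.17 TPM and did not pass (-0.12). RAB40C and RAB40B, which belong to a subfamily with a SOCS box that recruits ubiquitin ligases, both had a change of 0.12 and did not pass. RAB40A was under the filter, with 0.06 and 0.14 TPM in the inputs against 0.20 and 1.52 in Flag-RIP.

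Single calls differed in how far they depended on the processing. RAB9A and RAB23 stayed higher under each of the 15 alternatives in which they were tested. A mean minimum of 5 TPM, and 1 TPM in both inputs, left them untested, since their inputs were low. The same held for RAB14, RAB39A, RAB6A, RAB3B and RAB5A, so what follows for them leaves those filters out. RAB14 and RAB31 missed the threshold only with no filter (0.94 and 1.24), and RAB5C only with libraries scaled to the spike-ins (0.29). With that scaling RAB39A (0.44) and RAB6A (0.049) also did not pass, and RAB3B and RAB5A had -0.056 and -0.34. With no filter RAB6A (0.38), RAB3B (0.24) and RAB5A (-0.0025) did not pass, and after quantile normalization RAB3B did not (0.43). Shifting the medians after the log ended the calls of RAB39A (0.19), RAB3B (0.33), RAB5A (0.23), RAB1B (-0.19), RAB11B (-0.096) and RAB24 (-0.12). After quantile normalization RAB1B (-0.19), RAB11B (-0.12) and RAB24 (-0.17) did not pass either. With the replicate numbers fitted as a block, RAB1B, RAB11B and RAB24 also missed the threshold. A mean minimum of 5 TPM, and 1 TPM in both inputs, ended the calls of RAB11B (-0.23 and -0.26) and RAB24 (-0.12 and -0.15). With the 20 most abundant rows left out, RAB34 was the 1 member still called lower, while RAB32 had -0.55 and RAB1B -0.088.

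Shares of the RAB total do not depend on how libraries are scaled, and several stood apart between the groups. RAB34 took 21.7% and 19.1% of the TPM of all RAB rows in the inputs and 8.24% and 10.4% in Flag-RIP. RAB5C took 7.62% and 7.44% in the inputs and 17.4% and 17.3% in Flag-RIP, and stood at place 1 of the 62 by mean TPM there against place 4 in the inputs, below RAB34, RAB1B and RAB13. RAB31 took 2.33% and 2.64% against 11.1% and 6.53%, and went from place 10 to place 3. The 9 early endosome rows together took 13.8% and 14.2% in the inputs and 35.2% and 29.7% in Flag-RIP, most of it from RAB5C and RAB31. The 18 ER and Golgi rows went from 35.2% and 33.5% to 20.7% and 23.2%, and the 11 recycling rows from 31.9% and 33.3% to 26.4% and 28.4%. None of these pairs overlapped, but with 2 libraries against 2 an exact two-sided permutation test cannot give a p below 0.333. RAB34, RAB5C and RAB31 were already called on the same libraries, so their shares are no separate support.

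**Figure D3:**
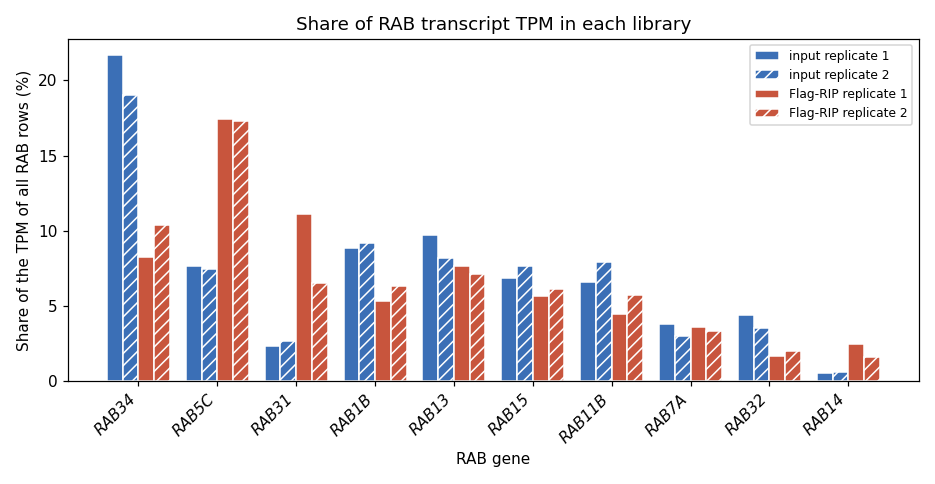
Share of the TPM of all 62 RAB rows (%, vertical axis) taken by each of 10 RAB genes in each library, inputs in blue and Flag-RIP in red, with hatched bars for replicate 2. The share of RAB34 went from 21.7% and 19.1% to 8.24% and 10.4%, while that of RAB5C went from 7.62% and 7.44% to 17.4% and 17.3%.

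Ratios between paralogues, whose proteins are closely related, stood apart between input and Flag-RIP in some families and overlapped in others. RAB5C to RAB5B TPM gave a ratio of 4.80 and 4.18 in the inputs against 8.53 and 8.75 in Flag-RIP, and that of RAB5C to RAB5A was 8.31 and 7.79 against 15.2 and 12.8. RAB31 to RAB22A gave 9.95 and 8.56 against 24.0 and 17.8. In these pairs the ratios of the groups did not overlap. Each holds RAB5C or RAB31, which were already called higher on the same libraries, so this is no separate support. How often ratios of other gene pairs overlap was not computed. RAB5B to RAB5A, by contrast, gave 1.73 and 1.86 against 1.78 and 1.47, RAB11B to RAB11A 7.01 and 8.70 against 6.58 and 8.25, and RAB40C to RAB40B 4.12 and 3.29 against 3.55 and 3.35, all overlapping. RAB8A to RAB8B gave 5.35 and 5.26 against 4.21 and 4.81, lower in both Flag-RIP libraries. RAB1B to RAB1A gave 8.47 and 7.05 against 7.45 and 5.12 and overlapped, as did RAB4B to RAB4A at 1.11 and 1.99 against 1.72 and 1.96. These differences between paralogues cannot pass an exact permutation test with 2 libraries a group, for the reason given above.

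Gene length and level varied with the change among the members, as they did among all genes. Across the 35 tested RAB genes the change had a Spearman correlation of 0.47 with the genomic length of the gene and -0.57 with its mean input TPM. Across all tested genes the same values were 0.24 (9729 genes with a length in RefSeq) and -0.57 (10415 genes). These are descriptions across genes of the same libraries, and the input TPM enters the change itself. RAB31, with the largest change, spans 154251 bases on chromosome 18 from 9708301 to 9862551. RAB34, with the lowest, spans 4148 bases on chromosome 17 from 28714281 to 28718428. RAB5C lies on chromosome 17 from 42124979 to 42154989, RAB14 on chromosome 9 from 121178133 to 121201869, RAB9A on chromosome X from 13689128 to 13710504, and RAB23 on chromosome 6 from 57186992 to 57222307 (RefSeq, GRCh38.p14). The table holds 1 value per gene, so it cannot show which stretch of a transcript was recovered.

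The 27 members under the filter were at most 0.53 TPM in the inputs against at most 1.69 TPM in Flag-RIP. Scaled to the common median, the Flag-RIP values lay above both inputs in 10 of them, below both in 6 and overlapped in 11. Among all tested genes 38.2% lay above and 41.5% below. The shares among other genes under the filter were not computed, so nothing about these members is read from the counts. Of these 27 rows, 5 were under 0.1 TPM in all 4 libraries, among them the neuronal RAB3C, which was listed at 0 in 3 libraries. RAB21, an endosomal RAB that binds integrins, had 0.12 and 0.20 TPM against 1.69 and 1.03. RAB2A, of ER to Golgi transport, had 0.32 and 0.53 against 1.59 and 1.34. Both are named after their values were seen, and none of the 27 was tested.

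Genes that act on RABs went both ways as well. Of 139 regulators and effectors listed, 137 had a row and 112 were tested, of which 18 rose (16.1%) and 14 fell (12.5%), against 20.2% and 25.5% of all tested genes. Their median change was 0.061. Fewer of all tested genes passed in each direction with 1 library left out in turn. Likewise, no more of the regulators and effectors rose, and fewer fell, than with all 4 libraries. On the deposited TPM 108 were higher and 0 lower, and scaled to the spike-ins 0 were higher and 64 lower.

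Of the prenylation, escort and GDI genes, 7 were tested, 2 rose (28.6%) and 3 fell (42.9%), against 20.2% and 25.5% of all tested genes. CHML, an escort protein for prenylation, rose by 0.83, though not past the threshold without Flag-RIP replicate 1 (0.58). RABAC1, a prenylated RAB acceptor, had 11.5 and 12.8 against 13.2 and 16.0 TPM and fell by 1.41 (limma adjusted p = 0.0092), and RABGGTA, a subunit of the RAB geranylgeranyl transferase, fell by 0.54. Without Flag-RIP replicate 1 neither passed (-1.23 and -0.40), and RABGGTA also did not without input replicate 1 (-0.53).

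Of 36 tested GEF and TRAPP genes 5 rose (13.9%) and 6 fell (16.7%), both below the shares of all tested genes. TRAPPC5 and TRAPPC6A, small subunits of the TRAPP complexes that activate RABs at the Golgi, fell by 1.68 and 0.97 (limma adjusted p = 0.0091 each). TRAPPC5 had 8.72 and 8.78 TPM in the inputs against 7.27 and 9 in Flag-RIP, and did not pass without Flag-RIP replicate 1 (-1.49). DENND6A rose by 0.89 and SBF2 by 0.58; SBF2 did not pass with either input left out (0.58 without replicate 1, 0.64 without replicate 2) or without Flag-RIP replicate 1 (0.36). SBF1, the most abundant of the list, had -0.19 and did not pass.

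Of 32 tested GAP genes 5 rose (15.6%) and 4 fell (12.5%), against the same 20.2% and 25.5%. TBC1D24 had 0.98 and 1.67 TPM in the inputs against 14.6 and 8.19 in Flag-RIP, a log2 change of 1.04 (SE 0.21, limma adjusted p = 0.016). RABGAP1 rose by 0.73, but not past the threshold without Flag-RIP replicate 1 (0.55). TBC1D10A fell by 0.45 and TBC1D1 by 0.41. Each of these decreases was lost without Flag-RIP replicate 1 (-0.49 and -0.33) or input replicate 1 (-0.41 and -0.42), that of TBC1D10A also without Flag-RIP replicate 2 (-0.37) and that of TBC1D1 without input replicate 2 (-0.42). TBC1D9B, the most abundant, had -0.12 and did not pass.

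Of 37 tested effectors 6 rose (16.2%) and 1 fell (2.70%), where 20.2% and 25.5% of all tested genes did. BICD1, a dynein adaptor that binds RAB6, had 1.66 and 3.08 TPM in the inputs against 19.0 and 17.1 in Flag-RIP, a log2 change of 1.04 (SE 0.11, limma adjusted p = 0.0084) that passed when any 1 library was left out. MICAL1 rose by 0.56, a call lost without input replicate 1 (0.35), Flag-RIP replicate 1 (0.54) or Flag-RIP replicate 2 (0.52). KIF20A, a mitotic kinesin first found as a RAB6 partner, fell by 0.63 and did not pass without input replicate 1 or Flag-RIP replicate 1 (-0.54 each). MICALL1, the most abundant of the list, had -0.050 and did not pass.

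Other small GTPases were called in each direction at shares near those of all tested genes. Of 45 listed from other branches of the Ras superfamily, 39 were tested, of which 7 rose (17.9%) and 10 fell (25.6%), against 20.2% and 25.5% of all tested genes. Their median change was 0.20. RHOA, a regulator of the actin cytoskeleton and the most abundant of the list by the mean of all 4 libraries, though not in the inputs, had 12.3 and 17.5 TPM in the inputs against 192 and 108 in Flag-RIP, a log2 change of 1.48 (SE 0.27, limma adjusted p = 0.013). Its close relative RHOC, the more abundant of the pair in both inputs, had 31.1 and 37.1 against 52.6 and 53.6 TPM and fell by 1.11. RRAS fell by 1.02. The decreases of RHOC and RRAS missed the threshold without Flag-RIP replicate 1 (-1.05 and -0.98). With 1 library left out in turn, fewer of all tested genes passed in each direction. Fewer members of this list fell each time too. More of them rose without Flag-RIP replicate 2, and fewer without each of the other libraries.

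**Figure D4:**
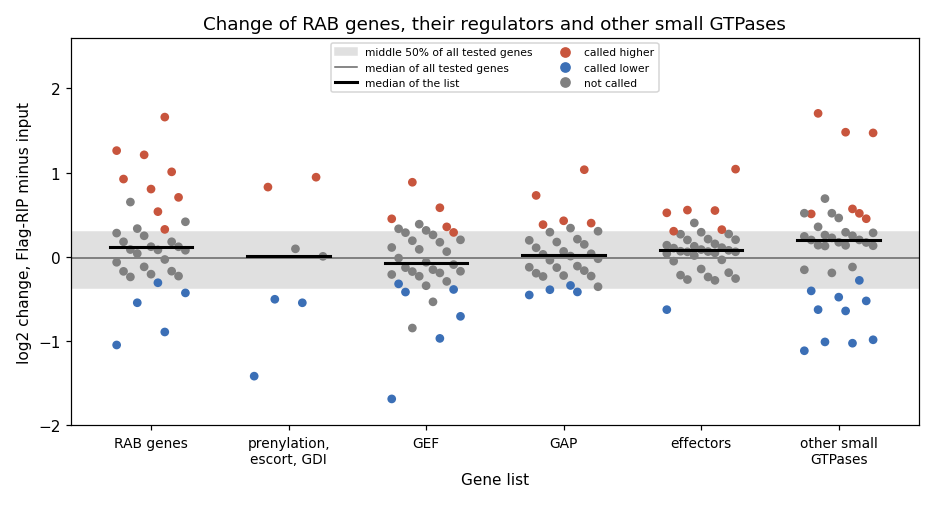
Log2 change (Flag-RIP minus input, vertical axis) of each tested gene by list, with red points for genes that rose, blue for genes that fell and grey for genes that did not pass; black bars are list medians, and the grey band holds the middle 50% of all tested genes, from -0.37 to 0.30. The medians of the lists lie within that band, at 0.12 for RAB genes and 0.20 for other small GTPases.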

How the data were processed

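The authors deposited TPM values, in a table with a column for each library. The submitters' processing notes list GRCh38, STAR and RSEM (version 1.2.31). Annotation, strand setting and depth: not given in the sources used here. Columns total 1000000 within rounding, the 92 spike-in rows included, which were left out of the tests. The 10415 genes that averaged 1 TPM or more were tested. Each library was scaled so that its median over these genes equalled the geometric mean of the 4 medians. The limma package (version 3.58.1, R 4.3.3; lmFit, eBayes with a mean-variance trend, 2 residual degrees of freedom) was run on log2(scaled TPM + 1), two-sided, with Benjamini-Hochberg adjustment over all tested genes. Scaling came before the log because a shift afterwards lowers the apparent change of low genes. The procedure was run on simulated data with a uniform library shift, few changed genes and an equal spread for all genes. The real libraries had many more genes called and very low inputs, so that run is no check on the calls reported here. Named were all called members, the most abundant of each role group, paralogues with 2 or more tested members, and for other lists the 2 largest calls each way and the most abundant gene. Members and lists were chosen with earlier results of these data known. Symbols and positions are from RefSeq GRCh38.p14 (62 of 62 members matched). Protein and transcript sequences were not used here. Alternatives were scalings, pseudocounts, filters, variance settings, a replicate block and leaving out each library. A few genes of the other lists are not reported here by name.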

Additional observations from a re-analysis of the deposited data

How the results depend on the processing

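Depth is unknown, so how far counting error limits the low inputs could not be set. The 7 summary values and 50 named genes were recomputed under 17 alternatives. Of 806 alternative values of named genes, 596 kept direction and side of the threshold, 96 no longer passed, 31 newly passed and 83 changed sign; the cause was not tested. Counts are given as higher and lower, for RAB genes (9 and 5), regulators (18 and 14) and other small GTPases (7 and 10). On deposited TPM they were 35 and 0, 108 and 0, and 34 and 0, with a RAB median of 1.43. With the 20 most abundant rows left out they were 16 and 1, 43 and 4, and 24 and 4 (median 0.63). Scaled to the spike-ins they were 4 and 17, 0 and 64, and 2 and 17 (median -0.51). With no filter they were 4 and 12, 1 and 36, and 2 and 12 (median -0.10), and under a mean minimum of 5 TPM they were 3 and 3, 10 and 4, and 7 and 5 (median -0.014). With at least 1 TPM in both inputs they were 4 and 3, 16 and 6, and 11 and 5. Shifted to a common median after the log, 3 RAB genes were lower and 12 other small GTPases higher, where 24.4% and 16.4% of all tested genes were. After quantile normalization the counts were also 3 and 12, where 20.5% of all tested genes were lower and 17.7% higher. Pseudocounts of 0.1 and 5 and both variance settings kept all 7 within the limits. The labels number input and Flag-RIP replicates alike, without saying whether equal numbers share a culture. Deviations of libraries with the same number had a correlation of -0.098, which cannot settle whether they are paired. With the replicate block 10 RAB genes were higher and 2 lower (RAB1B, RAB11B and RAB24 missed the threshold), and 9 other small GTPases higher and 6 lower. Of all tested genes 17.7% were then higher and 20.6% lower. Leaving out 1 library gave 6 to 11 RAB genes higher and 0 to 3 lower, 5 to 18 regulators higher and 1 to 12 lower, and 3 to 13 other small GTPases higher and 0 to 7 lower, the lowest lower counts each time without Flag-RIP replicate 1.

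Changes of sign were as follows. On deposited TPM the values were RAB34 0.68, RAB32 0.63, RAB1B 1.13, RAB11B 1.22, RAB24 1.2, RAB13 1.48, RAB26 1.22, RAB1A 1.04, RAB8A 1.41, RAB11A 0.88, RABAC1 0.24, RABGGTA 0.50, TRAPPC6A 0.28, SBF1 1.49, TBC1D10A 0.89, TBC1D1 1.18, TBC1D9B 1.53, KIF20A 0.94, MICALL1 1.64, RHOC 0.63 and RRAS 0.62. Shifted after the log they were RAB13 0.16, RAB4A -0.084, RAB8A 0.094, RAB8B -0.33, RAB22A -0.29, RAB40B -0.31, SBF1 0.17, TBC1D9B 0.21 and MICALL1 0.33. After quantile normalization they were RAB13 0.18, RAB8A 0.043, RAB8B -0.080, RAB22A -0.013, RAB40B -0.051, SBF1 0.20, TBC1D9B 0.18 and MICALL1 0.40. With the 20 most abundant rows left out they were RAB11B 0.030, RAB24 0.13, RAB13 0.27, RAB26 0.32, RAB1A 0.22, RAB8A 0.41, RAB11A 0.11, SBF1 0.29, TBC1D1 0.026, TBC1D9B 0.36 and MICALL1 0.44. Scaled to the spike-ins they were RAB3B -0.056, RAB5A -0.34, RAB7A -0.76, RAB40C -0.62, RAB4A -0.38, RAB4B -0.26, RAB5B -0.51, RAB8B -0.39, RAB22A -0.10, RAB40B -0.36, SBF2 -0.15 and MICAL1 -0.21. With no filter they were RAB5A -0.0025, RAB7A -0.33, RAB40C -0.25, RAB4A -0.10, RAB5B -0.12, RAB8B -0.15 and RAB40B -0.12. Under that minimum of 5 they were RAB8A 0.12, SBF1 0.014, TBC1D9B 0.078 and MICALL1 0.15, and with 1 TPM in both inputs RAB26 0.021, RAB8A 0.089, TBC1D9B 0.047 and MICALL1 0.12. With 1 library left out, RAB40B ranged from -0.00049 to 0.26, RAB7A from -0.094 to 0.26, MICALL1 from -0.16 to 0.056, RAB26 from -0.24 to 0.018 and RAB1A from -0.35 to 0.026.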

Other observations

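Rows that share a locus with a RAB gene gave further values. RAB30-AS1, an antisense RNA, had 0.46 and 0.79 TPM in the inputs and 6.40 and 5.22 in Flag-RIP and rose by 0.96 in log2 terms (limma adjusted p = 0.0084), while RAB30 itself was under the filter at 0.07 and 0.15 against 0.86 and 0.56 TPM. RAB6C-AS1 had 0.03 and 0.11 TPM in the inputs and 0.85 and 1.04 in Flag-RIP, and RAB11B-AS1 had 0.18 and 0.29 against 0.36 and 1.30. Counting by strand is not described in the labels used here, so reads of an antisense RNA and its partner may not be separated.

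The read-through row ISY1-RAB43 had 1.21 and 2.07 TPM in the inputs and 3.68 and 3.65 in Flag-RIP and fell by 0.40 (limma adjusted p = 0.017), while RAB43 had 0.64 and 1.22 against 5.07 and 2.62 TPM and did not pass (0.18). RAB4B-EGLN2 had 0.98 and 0.68 TPM in the inputs and is listed at 0 in both Flag-RIP libraries, whereas MIA-RAB4B is listed at 0 in both inputs and had 1.12 and 0.51 TPM in Flag-RIP. How RSEM divided reads between these rows and RAB4B is not known. These rows were named after their values were seen.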
